A study of Mus musculus with 6 samples.

Results

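Adenylyl cyclases make cyclic AMP, and Gs alpha, the product of Gnas, switches them on when a receptor is engaged. The genes described here are the membrane cyclases Adcy1 to Adcy9 and Gnas, 10 of the 24054 gene symbols in the deposited count table, chosen by name. The 2 groups were TIBxDNAJ-PKAc, a mouse line of genotype DNAJ-PKAc, and TIBx, its parental line of genotype WT, with 3 libraries each, replicates A to C. DNAJ-PKAc joins the start of the co-chaperone DNAJB1 to the catalytic subunit of protein kinase A (PKA), and this fusion is the hallmark of fibrolamellar carcinoma of the liver. Both lines carry the cell type label BNL 1ME A.7R.1 (liver) and were grown in the same medium with serum and glutamine. BNL 1ME A.7R.1 is known as a chemically transformed line derived from mouse embryonic liver. The labels do not say how the fusion was made, whether the DNAJ-PKAc line is 1 clone, or whether the replicates were separate cultures. The p-values therefore reflect only library-to-library spread, possibly technical, and with 1 line per genotype an effect of the fusion and a difference between lines cannot be told apart.

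In the canonical pathway, a hormone receptor loads Gs alpha with GTP, Gs alpha stimulates the membrane cyclases, and the cyclic AMP they make releases PKA catalytic subunits from their regulatory subunits. DNAJ-PKAc is itself such a catalytic subunit, so the cyclases and Gs alpha act upstream of the lesion. The cyclases differ in what else controls them: Adcy1, Adcy3 and Adcy8 encode forms stimulated by calcium and calmodulin, Adcy2, Adcy4 and Adcy7 forms that G beta-gamma enhances, and Adcy5 and Adcy6 forms that calcium and Gi alpha inhibit. Adcy9 encodes a form that responds poorly to forskolin.

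Libraries held between 8095549 and 9969590 expected counts, so 1 CPM, the unit of counts scaled to library size, stood for 8.10 to 10.1 counts. Values per library are given in the order A, B, C. CPM is TMM-scaled, except for the marker genes, Mki67, Malat1 and Col3a1, which are scaled to plain totals. Prkaca, the kinase gene of the fusion, was at 131, 120 and 95.7 CPM in DNAJ-PKAc, against 63.6, 87.6 and 79.2 CPM in WT (log2 difference 0.59, SE 0.19, edgeR adjusted p = 0.154). The fusion junction itself is not visible in gene-level counts. Of 10 hepatocyte markers 7 were at 0 in all 6 libraries, Alb, Ttr and Hnf4a among them, and the summed level ran from 2.36 to 11.7 CPM in DNAJ-PKAc and from 7.16 to 8.80 CPM in WT. The sum hides opposite differences. Afp was at 10.3, 7.54 and 2.24 CPM in DNAJ-PKAc, against 0.338, 0 and 0.114 CPM in WT. Krt8 was at 1.40, 1.11 and 0.118 CPM in DNAJ-PKAc, against 8.35, 7.16 and 7.72 CPM in WT. The labelled liver origin was thus not visible in most of these hepatocyte markers. Of 9 mesenchymal markers 8 had counts, with Vim, Col1a2 and Col3a1 the highest. They summed to between 15970 and 28533 CPM in DNAJ-PKAc and between 24474 and 26676 CPM in WT. Vim alone was at 11534 to 14642 CPM. Lrat was at 0, and Tagln and Des reached at most 0.118 and 0.618 CPM in any library. A pair of libraries stood apart. DNAJ-PKAc C lay at 6.89 on the axis of largest variance (55.6% of it), away from -52.8 and -55.4 in A and B, while WT lay between 23.5 and 47.8. Its Mki67, a proliferation marker, was at 35.0 CPM, against 474 CPM in each of its sister libraries and between 109.8 and 149 CPM in WT. The nuclear RNA Malat1 was at 1065, 1151 and 4639 CPM in DNAJ-PKAc, against 2093, 10412 and 2578 CPM in WT, highest in WT B. The results that move most with these libraries are given with and without them. Both were picked from these same expression values, so a fit without them is description and not separate support. Without both, each group keeps its libraries most alike. Their log2 CPM correlated at 0.993 for DNAJ-PKAc A with B and at 0.987 for WT A with C.

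The promoter sequences of the members with the largest upward differences, Gnas and Adcy1, are shown with the letters a PKA-activated factor would read. CREB, which PKA phosphorylates, binds the cyclic AMP response element TGACGTCA or its core TGACG, and GGGCGG is the GC box bound by SP1. RefSeq promoter windows (GRCm38.p6) were found for 8 of the 10 members, with 14 windows in all, and the 250 bases before each start were searched on both strands. Capitals mark TGACG and GGGCGG or their reverse complements CGTCA and CCGCCC. The Gnas window chr2:174329756-174330005 (plus strand) lies before the start at 174330006, from which GENCODE annotates a 380-residue protein, the length of short Gs alpha. The Adcy1 window is chr11:7063183-7063432 (plus strand). Its RefSeq start lies before the GENCODE start of Adcy1 at 7063489, and the bases just after it were not found in a GENCODE transcript of Adcy1.
Gnas: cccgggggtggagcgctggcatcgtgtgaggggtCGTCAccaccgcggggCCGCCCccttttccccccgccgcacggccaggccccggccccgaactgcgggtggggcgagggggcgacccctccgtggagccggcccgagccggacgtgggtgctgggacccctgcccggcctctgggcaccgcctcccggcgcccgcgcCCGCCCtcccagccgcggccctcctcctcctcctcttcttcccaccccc
Adcy1: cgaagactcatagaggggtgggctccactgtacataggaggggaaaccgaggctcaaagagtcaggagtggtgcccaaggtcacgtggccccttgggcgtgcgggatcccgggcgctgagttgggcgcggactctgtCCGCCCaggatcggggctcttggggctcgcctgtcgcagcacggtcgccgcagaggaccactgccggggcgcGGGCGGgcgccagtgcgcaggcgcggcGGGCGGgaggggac

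The Gnas window held 1 core and 2 GC boxes and was 80.0% G and C. The Adcy1 window held no core and 3 GC boxes at 71.2% G and C. No member window held the full TGACGTCA, which 1.55% of all 32851 windows hold. The core stood in 5 of the 14 member windows, of 3 genes, beside 17.8% of all windows, and every full element contains it. The GC box stood in 8 of the 14, of 7 genes, beside 32.7% of all windows. Gnas has 4 windows, and a pair of them share the same core. The cores of the remaining genes are shown with 15 bases on either side, from chr8:88282949-88282983 (plus strand) for Adcy7 and from chr16:4420503-4420537 (minus strand) for Adcy9. They begin 28 and 24 bases before the RefSeq start of their window. For Adcy7 that start lies inside the GENCODE gene, which begins at 88272403. The bases just after it were not found in a GENCODE transcript of Adcy7, while those for Adcy9 were found.
Adcy7: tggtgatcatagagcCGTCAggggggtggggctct
Adcy9: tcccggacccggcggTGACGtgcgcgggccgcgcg

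These matches are letters in a window, and binding was not measured.

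No cyclase gene and not Gnas passed the test for a difference between the lines. Of the 10 members, 7 had enough counts to be tested, and 0 were called by edgeR (quasi-likelihood, threshold 0.05 on the Benjamini-Hochberg adjusted p over the 10975 genes tested). None had an unadjusted p under 0.05, beside 21.5% of all genes tested. DESeq2 and limma-voom also called 0 members, beside 8.87% and 3.56% of all genes. In edgeR 3.51% of all genes were called, 150 higher and 235 lower, or 114 higher and 295 lower with upper-quartile scaling. The members' log2 differences (DNAJ-PKAc minus WT) ran from -0.35 for Adcy8 to 0.75 for Adcy1, with 3 above 0 and 4 below, and a median of -0.05, beside 0.05 over all genes tested. Groups did not overlap for 1 of the 7, Gnas, which was higher in DNAJ-PKAc. Over all genes 15.8% were higher without overlap and 13.1% lower. In bulk RNA, fewer cells with a transcript and less of it per cell cannot be told apart.

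Adcy2, Adcy4 and Adcy5 had 0 counts in each of the 6 libraries. At a limit of 3 counts, that allows a level of up to 0.297 to 0.370 CPM in a DNAJ-PKAc library and up to 0.329 to 0.350 CPM in a WT library. Each subfamily thus had a member with counts, and Adcy7 was the only detected member of the G beta-gamma-enhanced forms and Adcy6 of the calcium-inhibited ones. The soluble cyclase gene Adcy10, which encodes a bicarbonate-regulated enzyme outside the membrane family, had 0 counts as well.

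**Figure D1:**
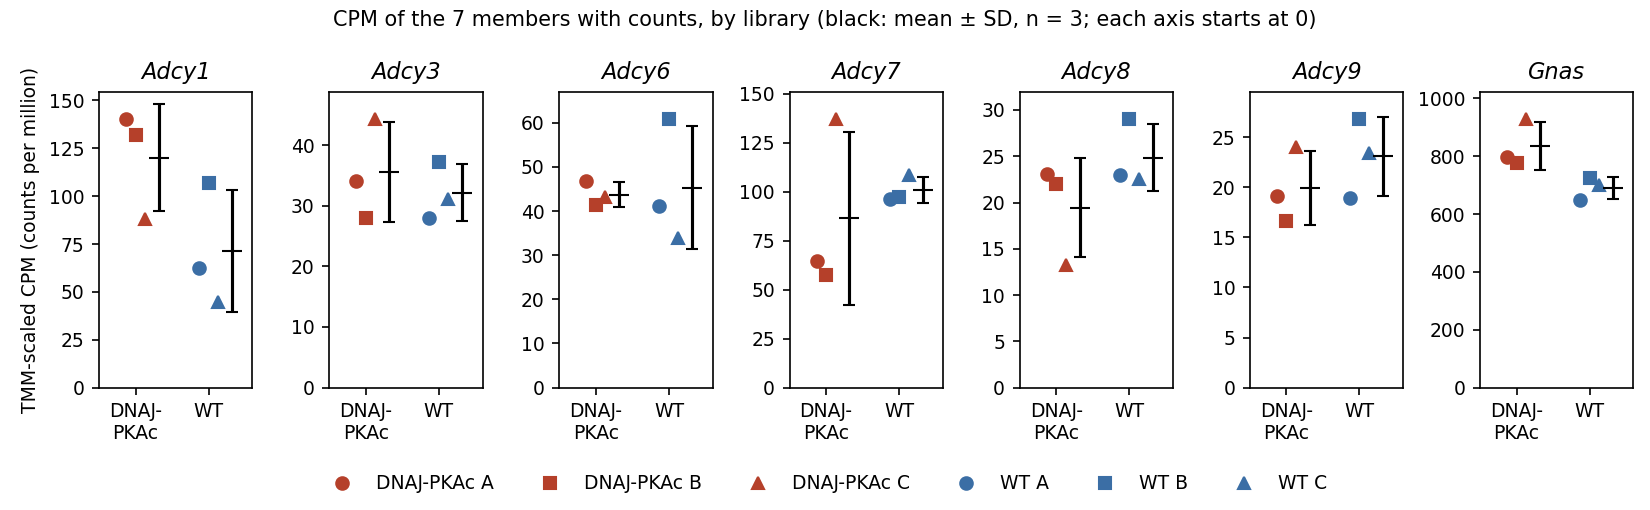
TMM-scaled CPM (y axes, each from 0) of the 7 members with counts in the DNAJ-PKAc (red) and WT (blue) libraries A, B and C, with the mean and SD of each group in black (n = 3). Adcy1 and Adcy7 show DNAJ-PKAc C apart from A and B, and Gnas is the member whose groups do not overlap.

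Adcy1, a calcium- and calmodulin-stimulated cyclase best known from neurons (chromosome 11, 7063489 to 7178506, plus strand; all gene positions are from GENCODE on GRCm38, the assembly of mm10), had the largest difference. It was at 140.5, 132 and 88.2 CPM in DNAJ-PKAc, against 62.5, 107 and 44.6 CPM in WT. DNAJ-PKAc A and B lay above every WT library, but C lay below WT B, so the groups overlapped. The means were 120.2 ± 28.0 CPM in DNAJ-PKAc and 71.3 ± 32.0 CPM in WT (SD, n = 3 each). The fold was 1.69 (log2 0.75, SE 0.34, 95% interval -0.05 to 1.56), which missed the threshold (edgeR adjusted p = 0.252). Once DNAJ-PKAc C was left out, it was 0.94 (edgeR adjusted p = 0.0990). Without both WT B and DNAJ-PKAc C it was 1.3, a fold of 2.46 (95% interval 0.99 to 1.61 on the log2 scale), and passed it (edgeR adjusted p = 1.12e-05). Those libraries held the highest WT and the lowest DNAJ-PKAc value of Adcy1, so leaving them out had to widen the difference. That fit kept only DNAJ-PKAc A and B and WT A and C. Adcy1 was thus the 1 member called higher in that fit, in which 23.9% of all genes were. Within WT, Adcy1 spanned 2.39-fold, and its highest value stood in WT B, the library of highest Malat1. The part of that RNA makeup in the Adcy1 values was not tested. Of 5 neural markers, Snap25 and Rbfox3 were at 0 in all libraries, and the summed level ran from 1.89 to 4.69 CPM in DNAJ-PKAc and from 2.95 to 4.51 CPM in WT.

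Adcy8, another calcium-stimulated form known from brain (chromosome 15, 64697084 to 64922296, minus strand), had the lowest log2 difference. It was at 23.1, 22.0 and 13.3 CPM in DNAJ-PKAc, against 23.0, 29.1 and 22.5 CPM in WT. DNAJ-PKAc B and C lay below every WT library, B only slightly, and A lay within the WT range. The log2 difference was -0.35 (SE 0.25, 95% interval -0.95 to 0.24, edgeR adjusted p = 0.429). Leaving DNAJ-PKAc C out gave -0.14. Adcy1 and Adcy8 were both lower in DNAJ-PKAc C than in its sister libraries.

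Adcy3, the third calcium-stimulated form and the cyclase of olfactory neurons (chromosome 12, 4133103 to 4213525, plus strand), overlapped between the lines. Its values were 34.1, 28.0 and 44.4 CPM in DNAJ-PKAc, against 28.1, 37.2 and 31.1 CPM in WT. The log2 difference was 0.14 (SE 0.22, 95% interval -0.37 to 0.66, edgeR adjusted p = 0.722). Of its exon bases 22.1% overlap exons of Cenpo, a centromere gene, on the other strand. The kit keeps the strand, but which strand was counted is not stated in the labels, so the Adcy3 count is uncertain. Cenpo itself was at 14.9, 16.4 and 6.46 CPM in DNAJ-PKAc, against 7.23, 6.54 and 10.4 CPM in WT (log2 0.65, edgeR adjusted p = 0.354), lowest in the DNAJ-PKAc library where Adcy3 was highest.

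Adcy7, the G beta-gamma-enhanced form that is widespread in blood cells and other non-neural tissue (chromosome 8, 88272403 to 88329962, plus strand), split the DNAJ-PKAc libraries. It was at 64.4, 57.4 and 137 CPM in DNAJ-PKAc, against 96.4, 97.4 and 108 CPM in WT. DNAJ-PKAc A and B lay below every WT library and C above every WT library. With all 6 libraries the log2 difference was -0.22 (SE 0.33, 95% interval -1.0 to 0.56, edgeR adjusted p = 0.716). With DNAJ-PKAc C left out it was -0.72 (95% interval -1.05 to -0.39, edgeR adjusted p = 0.0120), and Adcy7 was then the 1 member called, in the lower direction. In that fit 14.3% of all genes were called higher and 11% lower. Without both WT B and DNAJ-PKAc C it was -0.79 (edgeR adjusted p = 2.15e-05), in a fit in which 24.5% of all genes were called lower. The spread within WT was small, 1.12-fold from lowest to highest, and that within DNAJ-PKAc was 2.39-fold. On the log2 scale the DNAJ-PKAc SD of Adcy7 was larger than that of 87.0% of the genes tested. Within DNAJ-PKAc, Mki67 was lowest in C (474, 474 and 35.0 CPM) and Col3a1 was highest there (1013, 953 and 4730 CPM). Their part in the Adcy7 values was not tested. Adcy7 lies on the same chromosome as Prkaca, 4.28 Mb from it. Of 7 leukocyte markers 4 had no counts, Ptprc among them, and the summed level ran from 1.65 to 5.19 CPM in DNAJ-PKAc and from 1.57 to 3.16 CPM in WT.

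Adcy6, the calcium-inhibited form that PKA itself can restrain (chromosome 15, 98589973 to 98610076, minus strand), did not differ detectably. It was at 46.7, 41.4 and 43.1 CPM in DNAJ-PKAc, against 41.1, 60.9 and 33.9 CPM in WT. All DNAJ-PKAc libraries lay within the WT range. The log2 difference was -0.05 (SE 0.23, 95% interval -0.60 to 0.50, edgeR adjusted p = 0.913). WT B was the highest library, and leaving it out gave a log2 difference of 0.18 (edgeR adjusted p = 0.571). Of the Adcy6 exon bases 8.92% overlap the antisense gene Gm29331, so its count carries the same uncertainty as that of Adcy3.

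Adcy9, the forskolin-insensitive form (chromosome 16, 4287529 to 4420498, minus strand), was at 19.1, 16.7 and 24.0 CPM in DNAJ-PKAc, against 19.0, 26.8 and 23.4 CPM in WT. The groups overlapped, and DNAJ-PKAc B lay below every WT library. The log2 difference was -0.21 (SE 0.22, 95% interval -0.73 to 0.30, edgeR adjusted p = 0.589). Adcy9 and Adcy8 rested on the fewest counts, 135 to 230 and 109 to 249 per library, while Adcy1 had 404 to 1419 and Gnas 5925 to 8048.

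Gnas, which encodes Gs alpha (chromosome 2, 174284320 to 174346744, plus strand), was the member with the smallest spread relative to its level in WT. It was at 797, 776 and 929.5 CPM in DNAJ-PKAc, against 649, 723 and 699 CPM in WT. Every DNAJ-PKAc library lay above every WT library. The means were 834 ± 83.4 CPM in DNAJ-PKAc and 690.5 ± 37.7 CPM in WT (SD, n = 3 each), a fold of 1.21. The log2 difference of 0.27 (SE 0.15, 95% interval -0.09 to 0.63) missed the threshold (edgeR adjusted p = 0.329). It was 0.19 when DNAJ-PKAc C was left out and 0.18 when WT B was left out too (edgeR adjusted p = 0.333 and 0.119). A 2-fold change in either direction lies outside the interval from all 6 libraries.

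The Gnas count sums several products. The locus is imprinted and has alternative starts, and GENCODE annotates 24 transcripts of it, among them proteins of 253, 1133 and 394 residues from starts at 174284320, 174297859 and 174330089. Known products of the locus, besides Gs alpha, are the secretory protein NESP55 and extra-large Gs alpha. Counts per gene cannot tell them apart. Of the Gnas exon bases, 8.83% overlap exons of the antisense transcript Nespas and 13.1% those of Gm20721, both on the other strand, so the Gnas count is uncertain to that extent. Nespas had 6, 8 and 9 counts in DNAJ-PKAc, against 3, 16 and 9 counts in WT, and was too low to be tested.

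**Figure D2:**
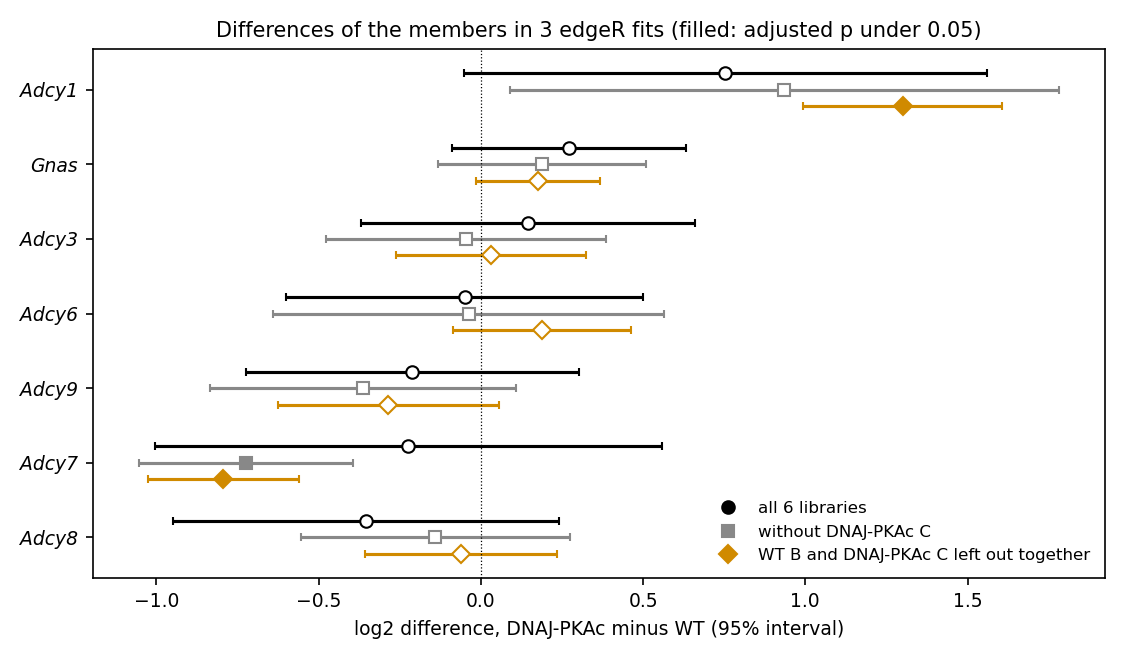
Log2 difference, DNAJ-PKAc minus WT (x axis), of the 7 tested members in the edgeR fit on all 6 libraries (circles), without DNAJ-PKAc C (squares) and with WT B also left out (diamonds), with 95% intervals. Filled marks passed the threshold: Adcy7 in both reduced fits and Adcy1 in the last.

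Per transcript length, the summed products of the Gnas gene stood far above every cyclase. TMM-scaled CPM divided by the length in kb of the longest GENCODE transcript gave Gnas 211 ± 21.1 CPM per kb in DNAJ-PKAc and 175 ± 9.56 CPM per kb in WT (SD, n = 3 each). Its mean level exceeded that of 97.5% of the 10483 tested genes that have a length. The cyclases lay between 63.3% (Adcy7) and 20.3% (Adcy8) on the same scale. In DNAJ-PKAc the order of mean levels was Adcy7, Adcy1, Adcy6, Adcy3, Adcy9 and Adcy8, with 14.5 ± 7.42 CPM per kb for Adcy7, 9.80 ± 2.28 for Adcy1 and 2.78 ± 0.77 for Adcy8. From Adcy7 down to Adcy3, each gene overlapped in range with the next in the order, but Adcy7 (9.65 to 23.1 CPM per kb) was apart from Adcy6 (6.85 to 7.74) and Adcy3 (4.99 to 7.89). Adcy3, Adcy9 and Adcy8 were apart from each other. In WT the order was Adcy7, Adcy6, Adcy1, Adcy3, Adcy9 and Adcy8, with 16.9 ± 1.12 CPM per kb for Adcy7, 5.81 ± 2.61 for Adcy1 and 3.56 ± 0.52 for Adcy8. In WT Adcy7 was apart from the next, and all neighbours below it overlapped. With the median transcript length the order of means stayed in both groups, but gaps narrowed. The DNAJ-PKAc means were then 15.5 CPM per kb for Adcy7, 14.5 for Adcy1 and 11.8 for Adcy6. At that length the DNAJ-PKAc ranges of Adcy7 and Adcy6 overlapped.

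Of the summed cyclase level per length, Adcy1 made up 26.5%, 27.8% and 13.8% in DNAJ-PKAc, against 12.7%, 17.0% and 8.89% in WT. Adcy7 made up 25.0%, 24.9% and 44.3% in DNAJ-PKAc, against 40.3%, 31.9% and 44.5% in WT. Adcy1 was thus the leading cyclase per length in DNAJ-PKAc A and B, and Adcy7 in DNAJ-PKAc C and in every WT library. The calcium-stimulated forms together made up 48.2%, 48.7% and 32.7% in DNAJ-PKAc, against 33.3%, 38.0% and 30.3% in WT. The sum itself was 43.2, 38.7 and 52.0 CPM per kb in DNAJ-PKAc, against 40.2, 51.3 and 40.9 CPM per kb in WT, and overlapped. Gnas stood at 4.67, 5.07 and 4.53 times that sum in DNAJ-PKAc, against 4.09, 3.57 and 4.32 times in WT. These shares and ratios depend on the lengths used. With the median transcript length the Gnas mean was 489 CPM per kb in DNAJ-PKAc and 405 in WT.

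**Figure D3:**
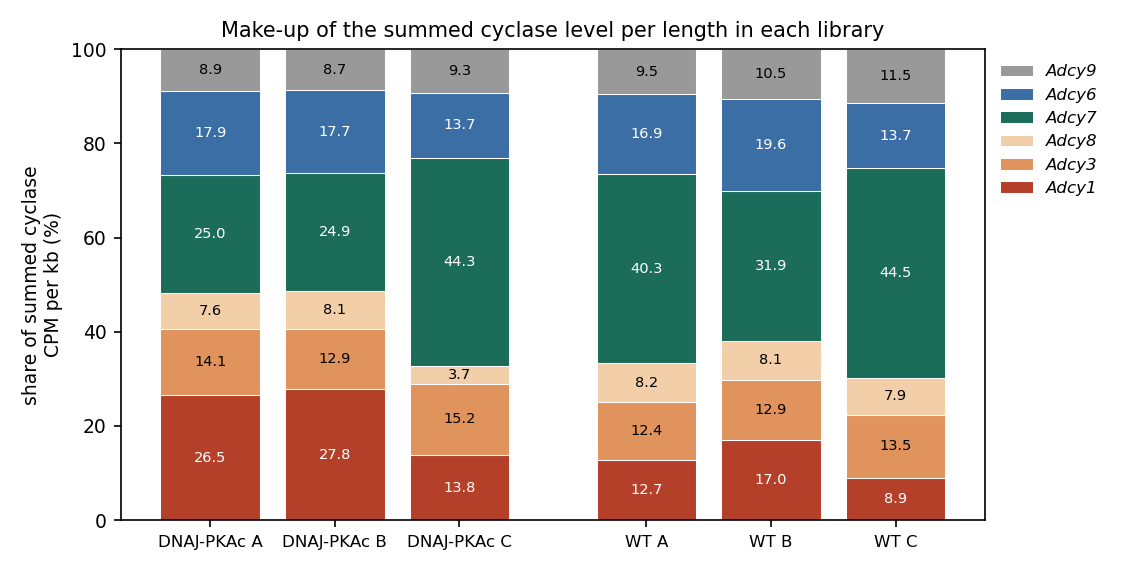
Share (%, y axis) of each cyclase in the summed cyclase CPM per kb of each library (x axis), for the 3 DNAJ-PKAc and 3 WT libraries. Adcy1 takes 26.5% and 27.8% in DNAJ-PKAc A and B, and Adcy7 takes 44.3% in DNAJ-PKAc C.

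By the smallest distance between centred log2 CPM profiles over the 6 libraries, the genes most like Gnas were Alg1, a mannosyltransferase gene (distance 0.09), the transcription factor gene Tcf3 (0.10) and Isca1, an iron-sulfur assembly gene (0.10). Those most like Adcy1 were the homeobox gene Hdx (0.26), Stx11, a syntaxin (0.35), and Dclre1b, a telomere nuclease gene (0.38). None of these 6 was called by edgeR, with adjusted p between 0.221 and 0.390. Among the members, the closest pair was Adcy3 and Gnas (0.38) and the farthest Adcy1 and Adcy7 (2.26). In that farthest pair DNAJ-PKAc A and B were high for Adcy1 and low for Adcy7.

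In the lists of genes around the cyclases described here, edgeR called Calcrl and Prkcd, beside 3.51% of all genes tested. Among the other G alpha genes, 8 of 15 were tested and 0 rose or fell by edgeR. An unadjusted p under 0.05 was found for 3 of the 8, beside 21.5% of all genes, and DESeq2 called 2, beside 8.87% (limma-voom 0). The list median was 0.04 on the log2 scale, beside 0.05 over all genes tested. Gnaz, an inhibitory G alpha, had 3, 0 and 3 counts in DNAJ-PKAc, against 16, 14 and 13 counts in WT (log2 -2.76, edgeR adjusted p = 0.0775). Gna13, another G alpha gene, was at 98.7, 98.4 and 94.7 CPM in DNAJ-PKAc, against 134, 163 and 126 CPM in WT (log2 -0.53, SE 0.16, edgeR adjusted p = 0.125). Neither group pair overlapped. Of the tested G alpha genes, Gnai3 (log2 0.49, edgeR adjusted p = 0.160) and Gna12 (log2 0.46, 0.273) were higher without overlap. Over all genes 13.1% were lower without overlap and 15.8% higher. Gnaz and Gna13 were the genes that DESeq2 called. When DNAJ-PKAc C was left out, Gnaz passed in edgeR (adjusted p = 0.0223) and Gna13 did not (0.0567). Without WT B as well, both passed (0.00199 for Gnaz and 0.0017 for Gna13). Without DNAJ-PKAc C 1 gene of this list rose and 1 fell by edgeR, beside 14.3% and 11% of all genes. Without both libraries 1 rose and 2 fell, beside 23.9% and 24.5%.

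Of 17 G beta and gamma genes 11 were tested and 0 rose or fell by edgeR, with 3 at an unadjusted p under 0.05, 1 called by DESeq2 and 0 by limma-voom, beside the same 21.5% and 8.87% of all genes. Their median log2 difference was 0.21. Gng2 was at 33.3, 30.6 and 79.6 CPM in DNAJ-PKAc, against 22.2, 19.1 and 24.4 CPM in WT (log2 1.12, SE 0.38, edgeR adjusted p = 0.167). Gng4 was at 6.43, 5.56 and 20.4 CPM in DNAJ-PKAc, against 3.07, 3.97 and 3.31 CPM in WT (log2 1.64, SE 0.53, edgeR adjusted p = 0.156). Both were highest in DNAJ-PKAc C, the library in which Adcy7 was highest. With that library left out, the log2 difference was 0.54 for Gng2 and 0.80 for Gng4 (edgeR adjusted p = 0.0507 and 0.0539). With WT B left out too, it was 0.41 for Gng2 and 0.87 for Gng4, and both passed (edgeR adjusted p = 0.0185 and 0.0166). In that fit 3 G beta and gamma genes rose and 2 fell, beside 23.9% and 24.5% of all genes. Without DNAJ-PKAc C alone 1 rose and 1 fell, beside 14.3% and 11%. All 3 calmodulin genes lay above 0 (median 0.43) but 0 were called by edgeR, DESeq2 or limma-voom, with 1 at an unadjusted p under 0.05. Calm3 was at 382, 372 and 304 CPM in DNAJ-PKAc, against 279.5, 219 and 287 CPM in WT (log2 0.43, SE 0.18, edgeR adjusted p = 0.226). For Calm3 the fit with neither WT B nor DNAJ-PKAc C gave 0.37 and passed (edgeR adjusted p = 0.00413). In that fit 2 of the 3 calmodulin genes rose, beside 23.9% of all genes. Without DNAJ-PKAc C alone 1 of them rose, beside 14.3%.

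Of 48 receptors that couple to Gs, 32 were at 0 and 4 were tested, beside 10098 and 10975 of all 24054 genes. By edgeR 1 of the 4 was called, beside 3.51% of all genes tested. Calcrl, the calcitonin receptor-like receptor that works with RAMP partners, rose 4.51-fold (log2 2.17, SE 0.42, edgeR adjusted p = 0.0390). It was at 11.2, 13.7 and 29.9 CPM in DNAJ-PKAc, against 3.73, 3.62 and 4.75 CPM in WT. The call was lost by limma-voom (adjusted p = 0.0691) and, in edgeR, when DNAJ-PKAc A (0.0630), DNAJ-PKAc B (0.0884), WT A (0.151), WT B (0.139) or WT C (0.131) was left out. Crhr1 (log2 -0.49, edgeR adjusted p = 0.152) and Glp1r (log2 0.27, edgeR adjusted p = 0.805) were tested and not called. The list median was 0.01.

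Among genes that chaperone G alpha or regulate cyclase or Gs, 6 of 9 were tested and 0 were called by edgeR, DESeq2 or limma-voom, with 1 at an unadjusted p under 0.05 and a median log2 difference of 0.07. Mycbp2, a ubiquitin ligase gene whose product can inhibit cyclases, was at 68.0, 69.9 and 111 CPM in DNAJ-PKAc, against 123, 300.0 and 119.7 CPM in WT (log2 -1.13, SE 0.41, edgeR adjusted p = 0.184), with the highest value in WT B. Leaving out WT B gave -0.60 for Mycbp2 (edgeR adjusted p = 0.284), and leaving out DNAJ-PKAc C too gave -0.86, which passed (3.52e-06). Cap1, a cyclase-associated actin regulator, was at 507, 521 and 286 CPM in DNAJ-PKAc, against 323, 292 and 284 CPM in WT (log2 0.55, SE 0.25, edgeR adjusted p = 0.250). With DNAJ-PKAc C left out the Cap1 difference was 0.78 and passed (edgeR adjusted p = 0.00796), as it did with WT B also left out (0.71, 1.92e-05). Of this list 1 gene rose and 0 fell without DNAJ-PKAc C, beside 14.3% and 11% of all genes. Without both libraries 1 rose and 1 fell, beside 23.9% and 24.5%.

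Of 14 kinase and phosphatase genes whose products act on cyclases, 10 were tested, and the list median was -0.24. By edgeR 1 rose and 0 fell, beside 3.51% of all genes called. DESeq2 called 2, beside 8.87%, limma-voom 1, beside 3.56%, and 2 had an unadjusted p under 0.05, beside 21.5%. Without DNAJ-PKAc C 1 rose and 2 fell by edgeR, beside 14.3% and 11% of all genes. With WT B left out too, 1 rose and 4 fell, beside 23.9% and 24.5%. Prkcd, a protein kinase C gene, rose 1.74-fold and was at 34.7, 33.6 and 35.8 CPM in DNAJ-PKAc, against 19.6, 21.2 and 19.1 CPM in WT (log2 0.80, SE 0.15, edgeR adjusted p = 0.0375). That call was lost when any library other than DNAJ-PKAc C was left out (edgeR adjusted p between 0.0725 and 0.171), with upper-quartile scaling (0.0515) and with the replicate letter as a block (0.133), while the log2 difference stayed between 0.73 and 0.82 in every alternative.

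**Figure D4:**
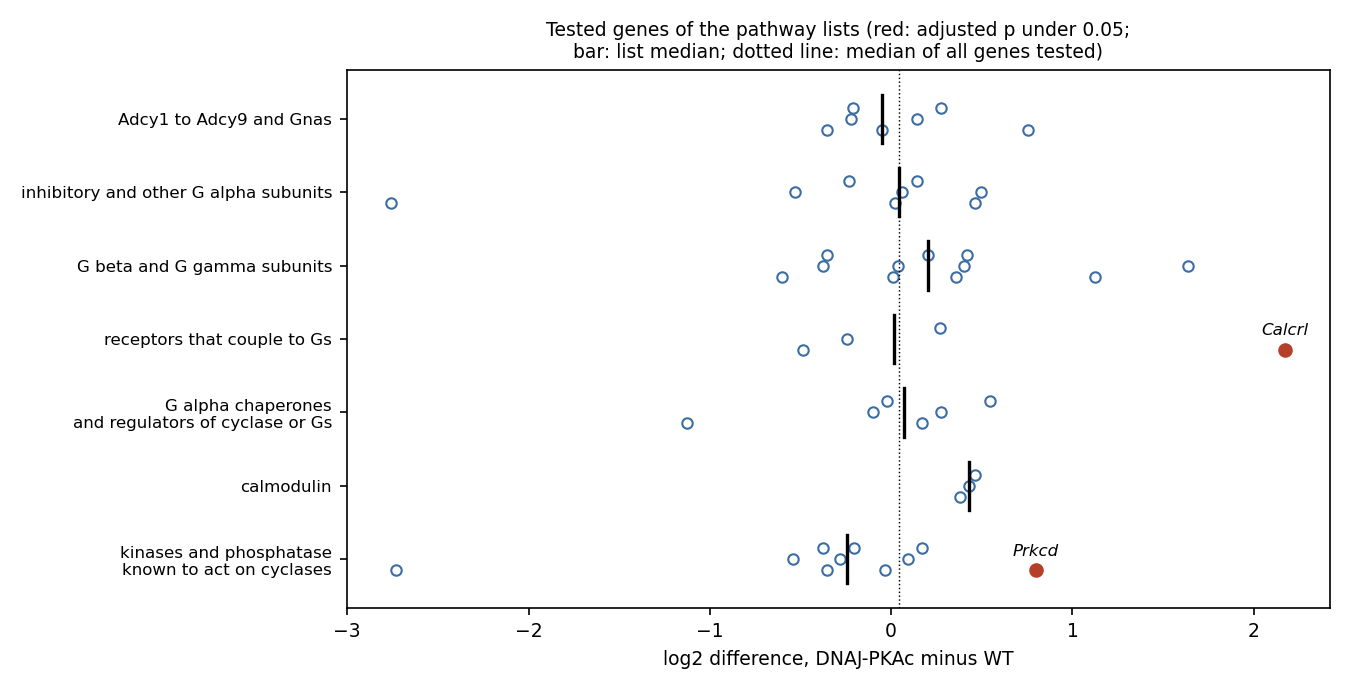
Fitted log2 differences, DNAJ-PKAc minus WT (x axis), of the tested genes in each list described (rows), with the list median as a bar and the median of all genes tested as a dotted line. Calcrl (2.17) and Prkcd (0.80) passed the threshold among the genes shown.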

How the data were processed

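The members and gene lists were chosen with earlier results of these data known. The 6 libraries were made from total RNA with a stranded kit (labels' protocols). The authors deposited expected counts by gene symbol, not normalized, with 1 column for each library, per the file headers. The submitters' processing notes list STAR 2.5.2b, RSEM 1.3.0 and mm10, with no role given. Annotation, filters and strand setting: not given in the sources used here.

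Expected counts were rounded. Genes were kept by filterByExpr (minimum count 10), which left 10975, and 10098 had 0 counts in every library. edgeR 4.0.16 in R 4.3.3 fitted a robust quasi-likelihood model with TMM scaling and group as the only term across all genes, 2-sided, with Benjamini-Hochberg adjustment and a threshold of 0.05. Standard errors and 95% intervals come from that fit. The script was tested on simulated data. DESeq2 1.42.0 and limma-voom (limma 3.58.1) were alternatives, with RLE and upper-quartile scaling, no filter, a filter of 1 CPM in 3 libraries, a replicate block, libraries left out and a threshold of 0.01. Limits for 0 counts (3 counts) and counting intervals cover counting error only. Lengths, positions and exon overlaps came from GENCODE M21, and promoters from RefSeq.

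Named were all members, in each list the genes past the threshold or else the 2 of smallest p, and the 3 nearest profiles of Gnas and Adcy1. Crhr1, Glp1r, Gnai3, Gna12, Cenpo, Col3a1, Afp, Krt8, Tagln, Des and Lrat were added after their values were seen. Some genes that this rule names, and 1 of the lists, are not reported here.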

Additional observations from a re-analysis of the deposited data

How the results depend on the processing

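Over all genes tested 385 were called. DESeq2 called 974, the fit with the replicate letter as a block 199, a threshold of 0.01 left 72, leaving out 1 library gave 77 to 2808, and dropping the pair WT B plus DNAJ-PKAc C gave 5336. Of the members 0 were called with all 6 libraries, with the replicate block and in 13 of 15 alternatives. Leaving out 1 library gave 0 or 1, the 1 being Adcy7 without DNAJ-PKAc C, and dropping that pair gave 2. The letters were not taken as pairs, since the labels do not say that a letter marks a shared culture or day. Same-lettered libraries deviated from their group means with correlations of 0.21 (A), -0.20 (B) and 0.03 (C). Different letters ran from -0.28 (DNAJ-PKAc C with WT A) to 0.30 (DNAJ-PKAc B with WT A). With 3 libraries per group these correlations cannot decide whether letters are pairs. Of 98 recomputed member differences, 91 kept direction and side of the threshold, 3 passed it and 4 turned sign. The sign of Adcy3 turned without DNAJ-PKAc C (-0.044; range with 1 library left out -0.044 to 0.29), that of Adcy6 without WT B (0.18; range -0.22 to 0.18) and without that pair (0.19), and that of Adcy7 without DNAJ-PKAc B (0.0018; range -0.72 to 0.0018). All 4 missed the threshold, and the causes were not tested. Adjusted p ran from 1.12e-05 to 0.539 for Adcy1, from 2.15e-05 to 0.999 for Adcy7 and from 0.119 to 0.558 for Gnas over the 14 alternatives of each. Counts of 109 to 249 per library limit Adcy8 and Adcy9.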
